A study of Mus musculus with 18 samples.

Results

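The genes described here encode complement components and their regulators outside the C1q chains, in mouse pancreas: C1ra, C1s1, C4b, C2, C3, Cfb, Cfp, Serping1 and C3ar1. They were chosen by name, as the rows of the deposited count table that carry these symbols, and 9 of the 25651 genes in the table were found. The table holds counts of polyadenylated RNA from the pancreas of 18 mice, each library being 1 mouse. The groups were 5 KPC ASC KO mice, 7 KPC mice and 6 wild-type (WT) mice. All were 20 weeks old, carried a mixed background of 129Sv and C57BL/6, and were kept under SPF conditions. In this field KPC names mice that develop pancreatic cancer, and the labels leave its alleles unnamed. ASC is the inflammasome adaptor encoded by Pycard, and the labels do not say which stretch of it was deleted or in which cells. Sex, litter, batch and histology are not labelled, and the part of these in any difference was not tested.

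As background, complement is a set of plasma and tissue proteins that cleave and activate each other on surfaces. In the classical route, the C1 complex, made of C1q with the proteases C1r and C1s, cleaves C4 and C2, and the alternative route amplifies through factor B and properdin. Both routes meet at C3, whose fragments coat targets and signal to leukocytes. The liver makes most circulating complement, and macrophages, fibroblasts and epithelial cells make components within tissues.

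The complement genes were higher in KPC than in WT pancreas. Of the 9 genes, 7 passed the filter on low counts, and all 7 were called higher, by 2.08 to 2.97 fold, where 14.8% of the 6920 genes tested were higher and 15.1% lower. C2, C1ra and C1s1 had 1 to 8, 2 to 9 and 3 to 7 counts per WT library. They passed the filter only through the KPC mice, in which they were high, so the filter partly set the count of 7. The median log2 fold change of the 7 was 1.43, against 0.06 for all genes tested. That median is the value of C2, so the filter partly set it too. Between KPC ASC KO and KPC pancreas none of the 7 was called, where 6.73% of genes were higher and 2.69% lower. Between KPC ASC KO and WT pancreas none of the 7 was called either, where 0% of genes were higher and 0% lower. The 5 KPC ASC KO mice did not lie together. Mouse 377 exceeded the lowest KPC mouse in 7 of the 7 genes and mouse 384 in 6, whereas mice 318, 335 and 388 did so in 0, 1 and 0. In bulk tissue, fewer cells of a type and less RNA per cell cannot be told apart.

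Levels are given as CPM, the counts of a gene scaled to a common total of the tested genes with TMM factors, which set the typical gene to the same level in all libraries. Library totals were 374432 to 647947 counts in KPC ASC KO mice, 452472 to 1626977 in KPC mice and 294077 to 416879 in WT mice. All 8 acinar markers were detected, the defining cells of the labelled tissue. Pycard was at 34.2, 27.3, 11.1, 5.56 and 21.1 CPM in KPC ASC KO mice 318, 335, 377, 384 and 388. It ran from 35.1 to 99.5 CPM (median 68.5) in KPC mice and from 45.4 to 65.5 CPM (median 60.4) in WT mice. Every KPC ASC KO mouse was thus below every KPC and every WT mouse, although the tags that remained check the deletion only if they lie within it. The log2 difference to KPC was −1.94 (SE 0.35, edgeR adjusted p = 0.00430), and that to WT was −1.67 (SE 0.38, adjusted p = 0.140). The first was −1.34 and not called without KPC mice 40, 89, 145 and 154 (adjusted p = 0.127), an alternative taken up under Cfp. Those mice had the highest Pycard of the KPC group, 68.5 to 99.5 CPM against 35.1 to 55.2 CPM. Leaving them out lowers the KPC level by construction and leaves fewer mice. The difference to WT was called with no filter on low counts (adjusted p = 0.00890), by DESeq2 (adjusted p = 0.0492) and with only the 2 groups fitted (adjusted p = 0.0405).

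Several of the genes are neighbours in the genome (GRCm38, positions as in the count table and in GENCODE M21). On chromosome 17, C4b spans chr17:34728380-34743882, Cfb spans chr17:34856374-34862518 and C2 spans chr17:34862604-34898265, all on the minus strand. C3 lies elsewhere on the same chromosome, at chr17:57203970-57228136 (minus). C1ra at chr6:124512405-124523443 (plus) and C1s1 at chr6:124530345-124542359 (minus) are adjacent, and C3ar1 is at chr6:122847138-122856161 (minus). Serping1 is at chr2:84765387-84775444 (minus) and Cfp at chrX:20925454-20931555 (minus). The annotated gene Gm20547 runs through Cfb and part of C2 on the same strand and shares 2246 of the 2825 exonic bases of Cfb and 1656 of the 3872 of C2. Of the last 500 exonic bases, nearest the poly(A) end, it shares 388 of Cfb and 31 of C2. It has no row of its own in the count table, and how reads in the shared bases were counted is not given in the sources used here. C4b, C1ra and C1s1 each have a near copy (C4a, C1rb and C1s2), so their counts are uncertain to the extent that reads were split between the copies.

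RefSeq promoters (build GRCm38.p6, 250 bases before to 50 after the start) were available for 5 of the 9 genes, C3, C1ra, C1s1, Cfp and C3ar1. Those of C3, C1ra and C1s1 are shown because these genes were higher together in KPC pancreas and each holds a match to a motif searched, printed in capitals. The motifs were the GAS word TTCNNNGAA, the ISRE core GAAANNGAAA, the C/EBP word TTGCNNAA and the NF-kappaB consensus, each on both strands.
C3, chr17:57228087-57228386, minus strand: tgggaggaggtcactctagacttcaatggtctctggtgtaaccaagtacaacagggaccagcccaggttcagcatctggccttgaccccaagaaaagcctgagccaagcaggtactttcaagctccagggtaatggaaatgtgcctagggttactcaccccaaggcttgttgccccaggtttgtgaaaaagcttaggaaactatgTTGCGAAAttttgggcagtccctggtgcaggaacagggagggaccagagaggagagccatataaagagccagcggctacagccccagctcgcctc
C1ra, chr6:124512371-124512670, plus strand: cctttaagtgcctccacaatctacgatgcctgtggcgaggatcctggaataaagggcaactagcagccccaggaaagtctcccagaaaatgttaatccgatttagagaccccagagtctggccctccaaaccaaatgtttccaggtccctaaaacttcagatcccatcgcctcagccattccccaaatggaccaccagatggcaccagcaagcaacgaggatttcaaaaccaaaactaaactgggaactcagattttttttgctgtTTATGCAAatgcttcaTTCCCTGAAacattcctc
C1s1, chr6:124542310-124542609, minus strand: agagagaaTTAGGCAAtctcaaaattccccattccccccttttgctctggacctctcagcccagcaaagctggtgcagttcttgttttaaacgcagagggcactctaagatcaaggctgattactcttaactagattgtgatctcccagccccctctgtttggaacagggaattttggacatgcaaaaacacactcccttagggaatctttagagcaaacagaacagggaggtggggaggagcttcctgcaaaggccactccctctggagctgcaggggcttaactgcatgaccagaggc
In C3 the capitals mark the C/EBP word at bases −45 to −38 from the start. In C1ra they mark a C/EBP word on the minus strand at bases 17 to 24 and a GAS word at bases 33 to 41, which do not overlap. In C1s1 they mark a C/EBP word on the minus strand at bases −242 to −235, outside the window of a second RefSeq start of the gene. No match lay in the windows of Cfp or C3ar1. Of 32851 mouse promoters of this length, 10.8% held the C/EBP word, 8.30% the GAS word, 3.44% the ISRE core and 8.46% the NF-kappaB consensus. Such matches are letters in a window and show neither binding nor control.

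C1ra encodes C1r, the protease that activates C1s within the C1 complex. Its levels were 25.6, 19.5, 55.7, 64.9 and 12.7 CPM in KPC ASC KO mice 318, 335, 377, 384 and 388. In KPC mice it ran from 45.4 to 87.0 CPM (median 52.7), and in WT mice from 10.3 to 31.0 CPM (median 27.1). The KPC and WT mice did not overlap, and the KPC ASC KO mice spread over both ranges, with 377 and 384 high. C1ra was 1.24 higher in KPC than in WT on the log2 scale (SE 0.33, edgeR adjusted p = 0.00678), on counts of 2 to 9 per WT library. The difference of KPC ASC KO to KPC was −0.56 (SE 0.30, adjusted p = 0.231), and that to WT was 0.68 (SE 0.37, adjusted p = 0.551).

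C1s1 encodes C1s, the protease that cleaves C4 and C2. KPC ASC KO mice 318, 335, 377, 384 and 388 had 31.3, 43.0, 83.5, 48.2 and 12.7 CPM. The range was 39.1 to 99.5 CPM (median 60.0) in KPC mice and 15.5 to 30.8 CPM (median 24.8) in WT mice. Every KPC mouse was above every WT mouse, on 3 to 7 counts per WT library, and 4 of 5 KPC ASC KO mice were above every WT mouse too. Of these 4, mouse 318, at 31.3 CPM on 11 counts, was close to WT mouse 1237, at 30.8 CPM on 6 counts. The log2 fold change of KPC over WT was 1.44 (SE 0.34, edgeR adjusted p = 0.00313). KPC ASC KO mice differed by −0.51 from KPC (SE 0.30, adjusted p = 0.284) and by 0.92 from WT (SE 0.38, adjusted p = 0.414).

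C4b encodes complement C4, a substrate of C1s and part of the classical C3 convertase. It was at 148, 89.9, 393, 393 and 114 CPM in KPC ASC KO mice 318, 335, 377, 384 and 388. In KPC mice the lowest, median and highest levels were 203, 325 and 439 CPM, and in WT mice 86.2, 154 and 200 CPM. KPC and WT mice again did not overlap, though the lowest KPC mouse and the highest WT mouse were close. Mice 377 and 384 were within the KPC range and the other 3 KPC ASC KO mice within the WT range. C4b was 1.06 higher in KPC than in WT on the log2 scale (SE 0.33, edgeR adjusted p = 0.0227). Without WT mouse 1197, the lowest of its group, the value was 0.92 and the call was lost (adjusted p = 0.0561). KPC ASC KO mice differed by −0.44 from KPC (SE 0.33, adjusted p = 0.423) and by 0.62 from WT (SE 0.36, adjusted p = 0.577).

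C2 encodes the zymogen that becomes the protease of the classical C3 convertase. Its levels were low, at 8.55, 19.5, 31.5, 14.8 and 8.44 CPM in KPC ASC KO mice 318, 335, 377, 384 and 388. They ran from 26.4 to 59.7 CPM (median 32.96) in KPC mice and from 3.40 to 33.9 CPM (median 8.58) in WT mice. WT mice 1202 and 1238, at 33.9 and 25.2 CPM, stood above the other WT mice, and the first of them lay within the KPC range. Counts per WT library were 1 to 8. The log2 fold change of KPC over WT was 1.43 (SE 0.42, edgeR adjusted p = 0.0128). C2 had the lowest value of the 7 genes between KPC ASC KO and KPC, −1.08 (SE 0.38, adjusted p = 0.0760), with 4 of 5 KPC ASC KO mice below every KPC mouse. Without KPC ASC KO mouse 377 that value was −1.49 and passed (adjusted p = 0.0372), and the difference to WT changed sign from 0.35 (SE 0.51, adjusted p = 0.872) to −0.092.

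C3 encodes the protein on which all routes converge. It was at 268, 207, 468, 453 and 127 CPM in KPC ASC KO mice 318, 335, 377, 384 and 388. In KPC mice it ran from 361 to 612 CPM (median 450.2), and in WT mice from 133 to 177 CPM (median 165). The WT mice were close together, with 160 ± 15.9 CPM (SD, n = 6), and the KPC ASC KO mice were wide apart, with 304 ± 151 CPM (SD, n = 5). KPC mice averaged 465 ± 82.8 CPM (SD, n = 7). C3 had the lowest adjusted p of the 7 genes in KPC against WT, with a log2 fold change of 1.54 (SE 0.23, edgeR adjusted p = 8.05e-05) and no overlap.

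Between KPC ASC KO and KPC, C3 differed by −0.59 (SE 0.23, edgeR adjusted p = 0.0931). Mice 318, 335 and 388 were below every KPC mouse, and 377 and 384 were not. Without mouse 377 the difference was −0.78 (adjusted p = 0.0371), and without mouse 384 it was −0.77 (adjusted p = 0.0395), so that leaving out either gave a call. Between KPC ASC KO and WT, C3 differed by 0.95 (SE 0.24, adjusted p = 0.179), with 4 of 5 mice above every WT mouse. That value passed when genes of low count were kept in the test (1.02, adjusted p = 0.00890).

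**Figure D1:**
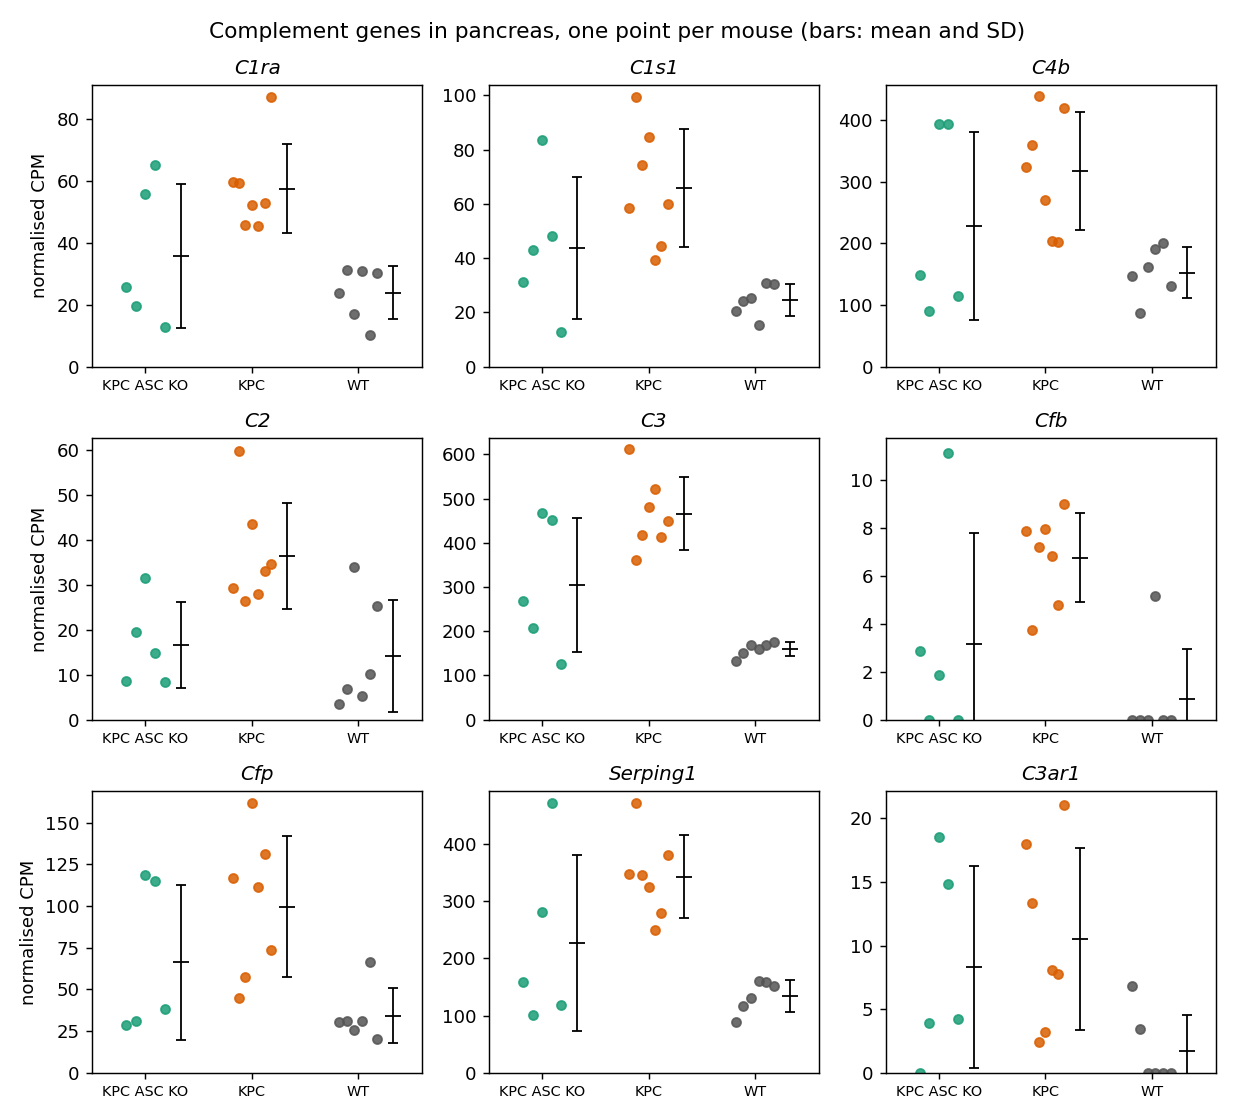
Normalised CPM of each of the 9 complement genes (vertical axes) in KPC ASC KO, KPC and WT pancreas, 1 point per mouse, with the mean and SD beside each group. For C1ra, C1s1, C4b, C3 and Serping1 every KPC mouse lies above every WT mouse, and for C1ra, C4b, C3 and Cfp the KPC ASC KO mice fall into 2 high and 3 lower points.

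Cfb and Cfp belong to the alternative route. Cfb encodes factor B, which supplies the protease of the alternative C3 convertase, and it was left out of the fit by the filter on low counts. It had 1, 0, 1, 6 and 0 counts in KPC ASC KO mice 318, 335, 377, 384 and 388, between 3 and 15 counts in each KPC mouse, and 1 count in all 6 WT mice together. As levels, KPC ASC KO mice had 3.17 ± 4.62 CPM (SD, n = 5), KPC mice 6.77 ± 1.87 CPM (SD, n = 7) and WT mice 0.860 ± 2.11 CPM (SD, n = 6). Cfb was thus counted in every KPC mouse and in 1 WT mouse, which was within the KPC range.

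A count of 0 in a WT library allows up to 3 counts, or 10.2 to 15.5 CPM, so that at this depth a single WT library cannot show a lower level than KPC. In KPC ASC KO libraries 3 counts were 5.56 to 12.7 CPM, against a KPC mean of 6.77 CPM. Over whole groups, the ratio of pooled CPM of KPC over WT was 8.43 (exact 95% interval 1.46 to 338). That of KPC ASC KO over KPC was 0.695 (exact 95% interval 0.287 to 1.46). Both intervals cover counting error only. The difference of mean log2 CPM (prior count 2) of KPC to WT was 1.55 (two-sided exact permutation p = 0.00350). KPC ASC KO differed from KPC by −0.97 (exact permutation p = 0.0455) and from WT by 0.58 (exact permutation p = 0.303). These p-values are not adjusted over the 6 exact tests made for Cfb and C3ar1. The p of KPC ASC KO against KPC was above 0.05 in 11 of 21 alternatives. Most of the exonic bases of Cfb are shared with Gm20547, as given above.

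Cfp encodes properdin, which stabilises the alternative convertase and is made mainly by leukocytes. It was at 28.5, 31.3, 119, 115 and 38.0 CPM in KPC ASC KO mice 318, 335, 377, 384 and 388. In KPC mice it ran from 45.1 to 162 CPM (median 111), and in WT mice from 20.2 to 66.6 CPM (median 30.8). WT mouse 1237, the highest, overlapped with 2 KPC mice. The log2 fold change of KPC over WT was 1.57 (SE 0.41, edgeR adjusted p = 0.00748), with an adjusted p of 0.0521 by limma-voom. KPC ASC KO differed by −0.52 from KPC (SE 0.37, adjusted p = 0.393) and by 1.05 from WT (SE 0.45, adjusted p = 0.446).

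Within the KPC group, Cfp was 117, 162, 111 and 131 CPM in mice 40, 89, 145 and 154, and 45.1, 57.6 and 73.5 CPM in mice 43, 48 and 210. The same 4 mice had the highest summed level of B cell markers, 525, 869, 981 and 956 CPM, where the other 3 had 23.9, 81.6 and 108 CPM. They also had the highest sums of macrophage markers, 2152, 1954, 2263 and 2002 CPM against 1343, 1454 and 1745 CPM, and of neutrophil markers, 215, 319, 55.9 and 73.1 CPM against 39.8, 43.2 and 45.0 CPM. Most of each macrophage sum was Lyz2, at a mean of 1498 CPM in KPC mice. With these 4 mice left out, an alternative chosen with earlier results known, Cfp was 0.80 higher in KPC than in WT and was not called (adjusted p = 0.236), and its difference between KPC ASC KO and KPC changed sign to 0.29 (adjusted p = 0.807). These 4 had the highest Cfp of the KPC mice, so leaving them out lowers the KPC level by construction. The other 6 genes were still called higher in KPC, by 1.38 to 1.73 on the log2 scale. The part of B cell, macrophage or neutrophil transcripts in the level of Cfp was not tested.

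Serping1 encodes the C1 inhibitor, the serpin that inactivates C1r and C1s. It was at 160, 102, 280, 471 and 118 CPM in KPC ASC KO mice 318, 335, 377, 384 and 388. In KPC mice it ran from 250 to 472 CPM (median 346), and in WT mice from 88.5 to 160 CPM (median 141). KPC and WT mice did not overlap, and 377 and 384 were again the KPC ASC KO mice within the KPC range. The log2 fold change of KPC over WT was 1.36 (SE 0.29, edgeR adjusted p = 0.00189). KPC ASC KO differed by −0.57 from KPC (SE 0.29, adjusted p = 0.204), and without mouse 384 by −1.02 (adjusted p = 0.0129). The difference of KPC ASC KO to WT was 0.79 (SE 0.31, adjusted p = 0.401). Serping1, C1ra and C1s1 were therefore all called higher in KPC than in WT pancreas.

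C3ar1 encodes the receptor for C3a, the small fragment released from C3, and is known mainly from myeloid cells. It was left out of the fit by the filter on low counts, with 0, 1, 10, 8 and 1 counts in KPC ASC KO mice 318, 335, 377, 384 and 388. The 7 KPC mice had 106 counts in all and the 6 WT mice had 3. Levels were 8.30 ± 7.95 CPM in KPC ASC KO mice (SD, n = 5), 10.5 ± 7.15 CPM in KPC mice (SD, n = 7) and 1.71 ± 2.85 CPM in WT mice (SD, n = 6). Again mice 377 and 384 were the high ones, at 18.6 and 14.8 CPM, and the KPC mice ranged from 2.40 to 21.01 CPM.

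The ratio of pooled CPM was 4.80 for KPC over WT (exact 95% counting interval 1.599 to 23.7) and 4.88 for KPC ASC KO over WT (1.45 to 25.6). Over mice, the log2 difference of KPC to WT was 1.61 (two-sided exact permutation p = 0.00932). That of KPC ASC KO to KPC was −0.43 (exact permutation p = 0.482), and that of KPC ASC KO to WT was 1.18 (exact permutation p = 0.113). The last fell under 0.05 without KPC ASC KO mouse 318 (exact permutation p = 0.0381) or WT mouse 69 (exact permutation p = 0.0476), and the KPC difference to WT rose above it without KPC mice 40, 89, 145 and 154 (exact permutation p = 0.0714). With genes of low count kept in the edgeR fit, both genes outside the main fit were called higher in KPC than in WT, Cfb with adjusted p = 0.0396 and C3ar1 with adjusted p = 0.0247. In that fit neither was called in KPC ASC KO against KPC (edgeR adjusted p = 0.640 for Cfb and 0.840 for C3ar1). Neither was called in KPC ASC KO against WT (edgeR adjusted p = 0.753 and 0.525).

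**Figure D2:**
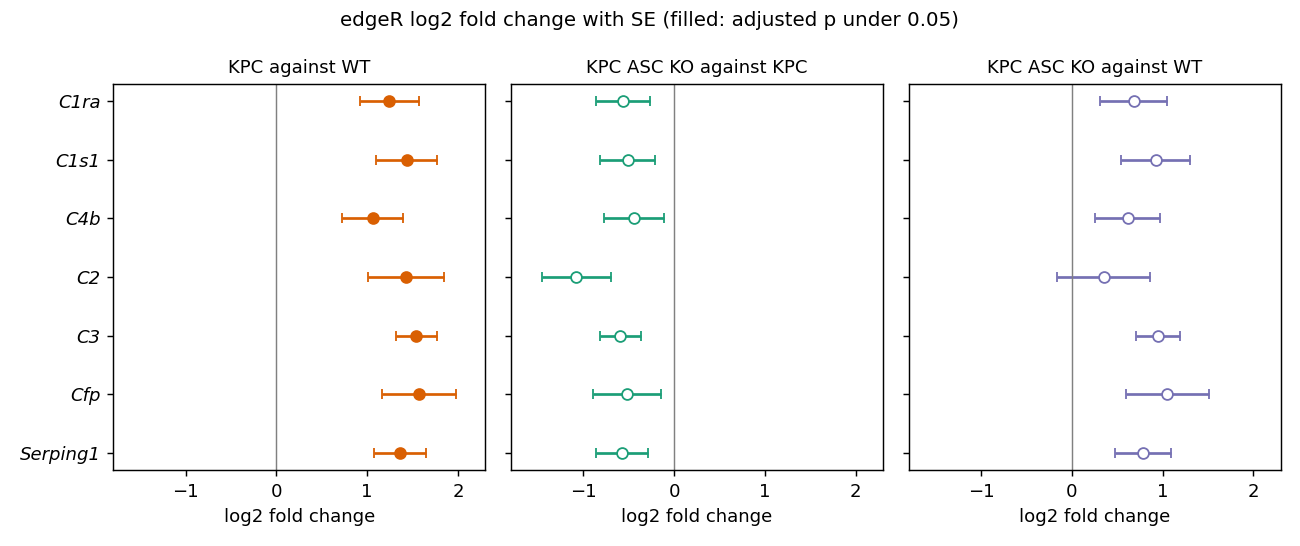
Log2 fold changes (horizontal axes) with standard errors from edgeR for the 7 complement genes in the fit, in 3 panels, from left to right KPC against WT, then KPC ASC KO against KPC, then KPC ASC KO against WT; filled points have an adjusted p under 0.05. All 7 points are filled and lie between 1.06 and 1.57 in the first panel, and none is filled in the second (−1.08 to −0.44) or the third (0.35 to 1.05).

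In KPC ASC KO against KPC all 7 values were below 0, with a median of −0.56 against −0.05 for all genes tested. C2, C1ra and C1s1 passed the filter only through the KPC mice, in which they were high. The filter thus partly set these signs and this median, which is the value of C1ra. Adjusted p ran from 0.0760 to 0.423, and 2 of the 7, C2 and C3, had an unadjusted p under 0.05, as did 1829 of all 6920 genes, a share close to that of all genes. In KPC ASC KO against WT all 7 values were above 0, with a median of 0.79 against 0.005 for all genes. Adjusted p ran from 0.179 to 0.872, and 4 of the 7 had an unadjusted p under 0.05, as did 691 of all 6920 genes. The edgeR test called 0 genes in this comparison, DESeq2 called 8 and limma-voom called 0. These comparisons share their mice, so the signs are not independent of each other. The KPC ASC KO group was widely spread, and a p above the threshold does not show that the groups were alike.

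The per-mouse view puts the split in the KPC ASC KO group in 1 number per mouse, the median over the 7 genes of the level relative to the WT mean. It was 2.58 in KPC ASC KO mouse 377 and 2.72 in mouse 384. It was 1.07, 0.915 and 0.747 in KPC ASC KO mice 318, 335 and 388. KPC mice ran from 1.90 to 3.01 and WT mice from 0.836 to 1.18. The first 2 mice were thus inside the range of the KPC mice, and the other 3 were inside or below the range of the WT mice. Mice 377 and 384 were also the KPC ASC KO mice with the lowest Pycard, 11.1 and 5.56 CPM. Those levels rest on 6 and 3 counts, against 12, 7 and 5 counts in mice 318, 335 and 388. With so few counts the order of the mice is uncertain, and a link to the split was not tested.

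**Figure D3:**
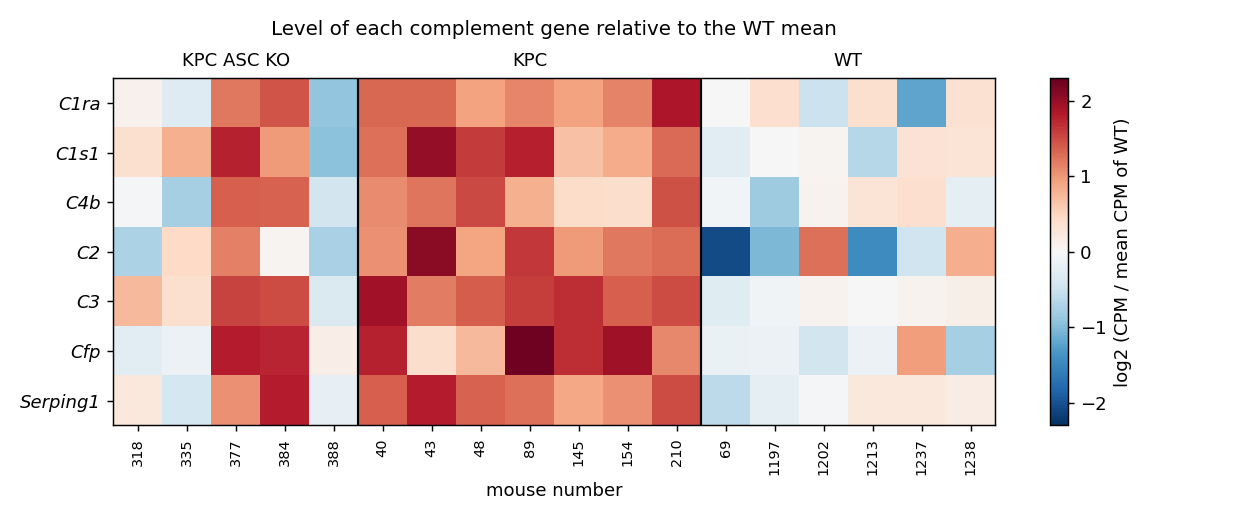
Log2 of the level of each of the 7 tested complement genes (rows) relative to the WT mean, for every mouse (columns, by mouse number, in the order KPC ASC KO, KPC and WT). KPC ASC KO mice 377 and 384 are mostly as red as the KPC columns, with median ratios of 2.58 and 2.72, except C2 in mouse 384. Mice 318, 335 and 388 are mostly pale or blue, except C3 in mouse 318 and C1s1 in mouse 335.

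Markers of other cells moved with these genes. The summed level of 8 fibroblast markers was 3110 and 2893 CPM in KPC ASC KO mice 377 and 384, and 926 to 1051 CPM in the other 3. It was 1579 to 2983 CPM in KPC mice and 800.1 to 1192 CPM in WT mice, and 7 of 7 tested markers were called higher in KPC than in WT. The summed level of 8 macrophage markers was 2043 and 1923 CPM in mice 377 and 384, and 598 to 818 CPM in the other 3 KPC ASC KO mice. Macrophage sums ran from 1343 to 2263 CPM in KPC mice and from 655 to 872 CPM in WT mice, with 4 of 6 tested markers called higher in KPC than in WT, and 1, Mpeg1, called lower in KPC ASC KO than in KPC. Fibroblast and macrophage sums thus showed the same split of the KPC ASC KO mice as the complement genes.

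Acinar transcripts moved the other way. Their sum was 157200 and 115200 CPM in KPC ASC KO mice 377 and 384, and 325500 to 406300 CPM in the other 3. It was 9672 to 176400 CPM in KPC mice and 239000 to 444100 CPM in WT mice. All 8 acinar markers were called lower in KPC than in WT and higher in KPC ASC KO than in KPC. Hepatocyte markers, of interest because liver makes complement, summed to 191 to 364 CPM in KPC ASC KO mice, 236 to 521 CPM in KPC mice and 323 to 441 CPM in WT mice, overlapping ranges, and of 3 tested only Trf (transferrin) was called higher in KPC than in WT. Most of the sum came from Ttr and Trf, which went opposite ways. Ttr averaged 102 CPM in KPC and 236 CPM in WT mice, and Trf 222 and 86.9 CPM. Alb averaged 3.25 and 5.12 CPM, so the overlap of the sums says little about hepatocytes. Of the B cell markers, 1 of 6 tested, Cd22, was called higher in KPC than in WT. None of the 2 adipocyte, 1 mesothelial or 2 neutrophil markers tested was called in any comparison, no mast cell marker passed the filter, and no marker in the table was at 0 in all 18 mice. The part of these cells in the complement differences was not tested.

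Between mice of 1 genotype the genes varied together to unequal degrees. Among 21 pairs of the 7 genes, compared on log2 CPM with group means removed over 18 mice, Pearson r ran from 0.0296 to 0.850 (median 0.538), and 2 pairs passed after adjustment over the pairs. The split of the KPC ASC KO mice enters every r, and with 5 mice no r is given within that group. C4b and Serping1 had Pearson r = 0.850 (adjusted permutation p = 0.0136) and Spearman rho = 0.833 (adjusted permutation p = 0.00819). Their r was 0.807 without the 2 mice farthest from the median of C4b, and 0.777 within the 7 KPC mice and 0.446 within the 6 WT mice. C2 and C1s1 had r = 0.618 (adjusted permutation p = 0.0189) and rho = 0.717 (adjusted permutation p = 0.00819). Their r was 0.727 without the 2 farthest mice, and 0.697 within KPC and 0.626 within WT mice. Both pairs join genes on different chromosomes.

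The remaining 19 pairs did not pass. The pair of C3 and C1s1 rested on single mice, with r = 0.604 that was −0.0039 without KPC ASC KO mice 388 and 377. The adjacent genes C1ra and C1s1 had r = 0.449 (adjusted permutation p = 0.268), and C2 and C4b, both in the chromosome 17 cluster, had r = 0.218 (adjusted permutation p = 0.467). Cfp and C2 had the lowest r, 0.0296 (adjusted permutation p = 0.908). In KPC mice 40, 89, 145 and 154, where Cfp was high, C4b was 325, 270, 204 and 203 CPM, and in mice 43, 48 and 210, where Cfp was low, it was 360, 439 and 420 CPM. Cfp and C4b were thus highest in different KPC mice. In the KPC ASC KO group both were highest in mice 377 and 384, and over the 18 mice their r was 0.420 (adjusted permutation p = 0.268).

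**Figure D4:**
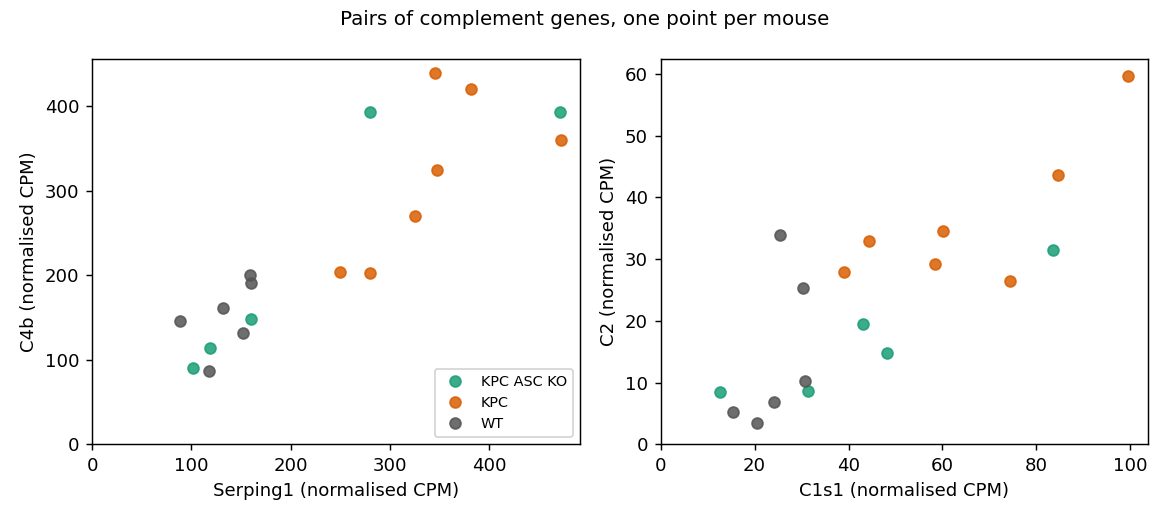
Levels of C4b against Serping1 (left) and of C2 against C1s1 (right) in normalised CPM, 1 point per mouse, coloured by group. These are the 2 of 21 pairs that passed after adjustment, with r = 0.850 and r = 0.618 once group means are removed.

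The tested genes most like each complement gene over the 18 mice, by Pearson r of log2 CPM with group means removed, are given as a description. For C3 they were Ctsb (0.92), Tyrobp (0.88) and Cd74 (0.87), and for Serping1 they were C1qc (0.90), Tmem176b (0.90) and Stab1 (0.89). C1ra was closest to Maf (0.88), Fcrls (0.88) and Capg (0.85). C4b stood closest to Fn1 (0.92), Col1a1 (0.91) and Sfrp1 (0.90), which encode fibronectin, a chain of type I collagen and a secreted Wnt-binding protein. For C1s1 the genes were Gda (0.79), Dpysl3 (0.78) and Igfbp7 (0.77), for C2 they were Kat14 (0.86), Ppfibp1 (0.83) and Pkd1 (0.80), and for Cfp they were Wdr1 (0.89), Gm8186 (0.87) and Gnai2 (0.86). The genes of a library share its depth and its mix of cells, and no gene was named for 2 of the complement genes.

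Other complement genes were followed from a list of 44, of which 40 were in the table and 16 were tested. In KPC against WT, 9 of the 16 were called higher and 2 lower, where 14.8% of all genes tested were higher and 15.1% lower. Of the 9, Fcna, Colec12, Cd55, Itgam, Itgb2 and Cd93 passed the filter only through the KPC mice, in which they were high. Among initiators, the C1q chains were called higher, C1qa by 0.95 (adjusted p = 0.0327), C1qb by 1.55 and C1qc by 1.82 on the log2 scale. The lectins Fcna (1.47), a ficolin, and Colec12 (1.75), a collectin, were called higher as well. C1rl, a C1r-like gene beside C1ra on the same strand, which was not on the list and was chosen after its values were seen, was called lower in KPC than in WT, with −1.74 (SE 0.38, edgeR adjusted p = 0.00210). It averaged 36.0 ± 16.9 CPM in KPC ASC KO mice (SD, n = 5), 16.8 ± 10.4 CPM in KPC mice (SD, n = 7) and 50.2 ± 16.7 CPM in WT mice (SD, n = 6), the opposite direction to C1ra and C1s1. C1rb, the near copy of C1ra, was not called, with 1.15 (edgeR adjusted p = 0.0738). Cfd, the protease that activates factor B, was not called either, with −0.55 (adjusted p = 0.444), so that of the 2 tested genes particular to the alternative route Cfp was called and Cfd was not.

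Among regulators, Cd55 (1.88), which speeds the decay of convertases on cells, was called higher in KPC than in WT. Vtn, encoding vitronectin, a blocker of the terminal complex, was called lower, with −2.41 (edgeR adjusted p = 0.00100), and Cpn1, a chain of the peptidase that inactivates C3a, was called lower, with −1.72 (adjusted p = 0.00535). Clu, also a blocker of the terminal complex, did not pass (0.02, adjusted p = 0.968). Of receptors, Itgam (1.43) and Itgb2 (1.52), the chains of complement receptor 3, and Cd93 (1.73) were called higher. None of the terminal components in the table, 5 of the 7 listed, reached the fit. C6, for example, was at 0 to 5.56 CPM in KPC ASC KO mice, 0 to 18.0 CPM in KPC mice and 0 in all WT mice. The 11 calls were 5 by limma-voom and 3 without KPC mice 40, 89, 145 and 154.

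In KPC ASC KO against KPC, 3 of the 16 were called, 2 higher and 1 lower, where 6.73% of all genes tested were higher and 2.69% lower. Vtn averaged 149 ± 36.7 CPM in KPC ASC KO mice (SD, n = 5), 48.7 ± 33.7 CPM in KPC mice (SD, n = 7) and 239.6 ± 76.9 CPM in WT mice (SD, n = 6), and was called higher in KPC ASC KO than in KPC by 1.73 (edgeR adjusted p = 0.0268). Cpn1 averaged 69.6 ± 6.07, 24.7 ± 22.9 and 69.9 ± 15.5 CPM in KPC ASC KO, KPC and WT mice, and was called higher by 1.73 (adjusted p = 0.0172). Itgb2 averaged 18.8 ± 11.7, 54.6 ± 29.5 and 19.9 ± 9.53 CPM in KPC ASC KO, KPC and WT mice, and was called lower, with −1.51 (adjusted p = 0.0350). Its level was 71.9, 90.3, 75.8 and 72.5 CPM in KPC mice 40, 89, 145 and 154, and 27.0, 19.2 and 25.5 CPM in KPC mice 43, 48 and 210, which lay within the KPC ASC KO range of 3.91 to 29.6 CPM. Vtn and Cpn1 differed between the groups in the same direction as the acinar markers, and the part of acinar cells in them was not tested. The 3 calls dropped to 0 without KPC ASC KO mouse 318 or 335 or KPC mice 40, 89, 145 and 154 together, or with only the 2 groups fitted, and to 1 without KPC ASC KO mouse 388 or KPC mouse 89, 145 or 154. By library totals 12 of the 16 were called, as were 5193 of all 6920 genes, a share close to that of the 16. None of the 16 was called in KPC ASC KO against WT, where 0 of all genes were called. Of the 16, 4 had an unadjusted p under 0.05 there, as did 691 of all 6920 genes.

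**Figure D5:**
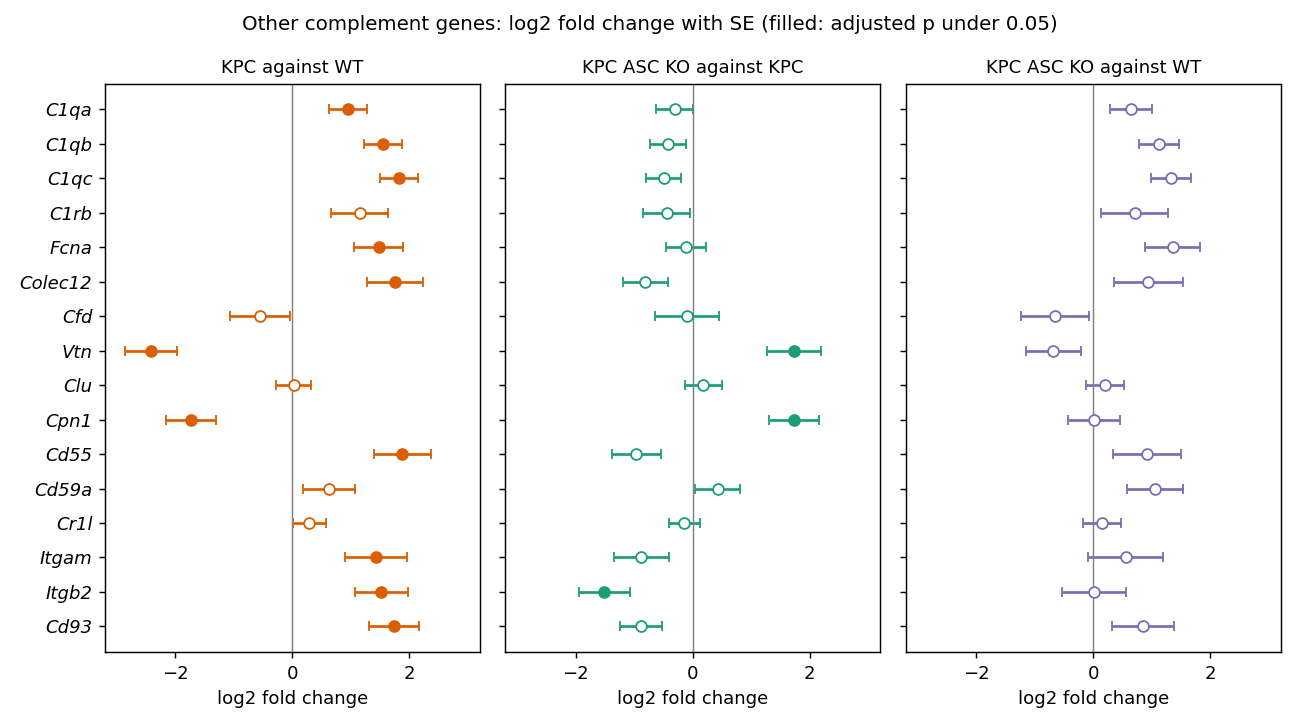
Log2 fold changes (horizontal axes) with standard errors from edgeR for the 16 other complement genes in the fit, in 3 panels, from left to right KPC against WT, then KPC ASC KO against KPC, then KPC ASC KO against WT; filled points have an adjusted p under 0.05. In the first panel 9 points are filled to the right of 0 and 2, Vtn and Cpn1, to the left; in the second only Vtn, Cpn1 and Itgb2 are filled, and in the third none.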

How the data were processed

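Per the labels' protocols, priming at poly(A) added an index of 8 bp and a unique molecular identifier of 10 bp, and libraries were pooled and sequenced in the sense direction. The authors deposited raw counts per gene, unnormalised whole numbers in 18 of 18 columns. The submitters' processing notes name limma 3.50.0, edgeR 3.36.0, R 4.1.2 and the builds GRCm38 and mm10; an aligner and a rule for collapsing identifiers were not given in the sources used here. Groups come from the labelled genotype, and mouse numbers are not shared between groups. No library was a copy of another in its group (lowest chi-square per degree of freedom 2.35).

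The counts were analysed with edgeR 4.0.16 in R 4.3.3: filterByExpr (minimum count 10), TMM, and the robust quasi-likelihood F test on all 18 mice, with Benjamini-Hochberg adjustment over 6920 genes and a threshold of 0.05. Both genes outside the fit were compared by two-sided exact permutation tests, and gene pairs by 100000 permutations within groups (scipy 1.17.1). Alternatives were other scalings, no filter, DESeq2 1.42.0, limma-voom (limma 3.58.1), fits of only the 2 groups compared, and leaving out mice. The log2 CPM of the exact tests, the gene pairs and the most similar genes used a prior count of 2. In the exact tests, the log2 difference of a gene with few counts depends on it. By its label each library is a separate mouse, so p-values measure the spread between mice.

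All 9 members, Pycard, the tested genes of the complement list that passed (up to 12 a comparison) and the 3 genes most like each member are named, and other genes named were chosen after their values were seen. The members and lists were chosen with earlier results of these data known. 1 further complement gene was left off the list and is not reported here. Promoters are from RefSeq.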

Additional observations from a re-analysis of the deposited data

Results flagged for a closer look

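In 4 of 27 groups of mice examined (9 genes in 3 groups), 1 mouse lay far from the others of its group by Dixon's ratio of gap to range. The rule's rate of about 1 in 20 holds for normally distributed values. Low counts are not so distributed, so the 4 cannot be set against that rate. Cfb was 11.1 CPM in KPC ASC KO mouse 384, on 6 counts, against 0 to 2.85 CPM in the other 4 mice. Cfb was 5.16 CPM in WT mouse 1213, on 1 count, and 0 in the other 5 WT mice, a pattern that the rule always flags. C1ra was 87.0 CPM in KPC mouse 210, above 45.4 to 59.5 CPM in the other 6. Cfp was 66.6 CPM in WT mouse 1237, on 13 counts, above 20.2 to 31.0 CPM in the other 5. Counting error was not tested in any of the 4.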

How the results depend on the processing

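Of 668 recomputed values of the 9 genes, 635 kept their direction and side of the threshold, 15 lost a call, 16 gained one and 2 changed sign: C2 in KPC ASC KO against WT without KPC ASC KO mouse 377 (−0.092, with −0.092 to 0.85 over all mice left out in turn), and Cfp in KPC ASC KO against KPC without KPC mice 40, 89, 145 and 154 (0.29). Without these 4 mice the difference of Pycard between KPC and WT was −0.33, against 0.26 with them. These 4 had the highest Pycard of the KPC mice, so leaving them out lowers the KPC level. Scaling by library totals moved the median of all genes by 1.34 in KPC against WT, −1.10 in KPC ASC KO against KPC and 0.24 in KPC ASC KO against WT. It called 7 members lower in KPC ASC KO than in KPC, where 5051 of 6920 genes were called lower. Beyond the shift of −1.10, the differences of the 7 were −1.08 to −0.16.

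The number of genes changed between KPC and WT, 2070, was 5684 by library totals, 752 without the 4 KPC mice and 1706 to 2325 without 1 mouse. Between KPC ASC KO and KPC, 652 became 5193 by library totals, 192 with only the 2 groups fitted, 1 without the 4 KPC mice and 157 to 1068 without 1 mouse, and members called went from 0 to 7 by library totals, 2 with no filter and 0 to 2 without 1 mouse. Between KPC ASC KO and WT, 0 genes became 1 by library totals, 12 with no filter, 8 by DESeq2, 8 with only the 2 groups, 4 without the 4 KPC mice and 0 to 3 without 1 mouse, and members called were 1 with no filter. Of the 6 exact tests 3 had p under 0.05, with 1 left without the 4 KPC mice and 2 to 4 without 1 mouse. The 2 pairs that passed became 12 by library totals, 0 without the 4 KPC mice and 1 to 3 without 1 mouse. The cause was not tested. No paired analysis was possible because the groups share no mouse numbers. Depth limits Cfb and C3ar1, which the filter left out, and C2, C1s1 and C1ra, which had 9 or fewer counts in each WT library.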
